A study of Homo sapiens with 16 samples.

Results

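The CLK kinases, the L-type cyclins and CDK11 were followed in LNCaP cells through the genes CLK1, CLK2, CLK3, CLK4, CCNL1, CCNL2, CDK11A and CDK11B. These 8 genes were chosen by symbol, with earlier results of these data known, so counts over them describe these genes only. Symbols were matched to the Ensembl identifiers of the count table, and the members were 8 of its 60252 rows. All 8 passed the filter on low counts that left 23830 genes for testing. LNCaP is an androgen-responsive prostate cancer cell line that came from a lymph node metastasis. The 16 RNA libraries fall into 8 groups of 2 by arm and agent. Cells of the 4 arms had a scrambled siRNA (Scr), an siRNA against the O-GlcNAc transferase gene OGT (siOGT1, or a second one, siOGT2) for 48 hours, or OSMI2, which inhibits that enzyme. Each arm received for the last 4 hours either DMSO, the solvent control, or 0.5 μM AT7519, an inhibitor of several cyclin-dependent kinases that include CDK9. The labels enter OSMI2 as if it were an siRNA, and the sources used here give neither its dose and time nor whether those cells also had scrambled siRNA. All groups came from this 1 cell line, and each siRNA arm used 1 siRNA. The labels do not say whether replicates were separate cultures, and p-values therefore measure only the spread between these libraries, which may be technical. By its title the study is about CDK9 inhibition and splicing, and its groups allow the AT7519 response to be compared with OGT active, depleted or inhibited.

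CLK kinases phosphorylate the arginine and serine rich (RS) domains of the SR proteins, which sets when these splicing factors leave nuclear speckles and act on pre-mRNA. Cyclins L1 and L2 are speckle proteins with RS domains of their own, and they bind and activate CDK11. CDK11 is a kinase of transcription and splicing whose substrates include the U2 snRNP protein SF3B1. CLK transcripts are themselves spliced in alternative ways, with introns that can be kept in the nucleus, and gene counts do not tell such forms apart.

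Totals ran from 40216911 to 147019364 counts per library, and the members held between 171 counts (the lowest for CDK11A) and 30136 counts (the highest for CCNL1) in a library. OGT stood at 256 to 314 CPM (the count as a share of the TMM-adjusted library size) in the 4 Scr libraries, 10.98 to 20.7 CPM after siOGT1 and 29.3 to 36.02 CPM after siOGT2, and it was not lowered by OSMI2 (336 to 422 CPM). Of the luminal prostate markers, KLK3 was at 727 to 1658 CPM, FOLH1 at 1246 to 2410 CPM and KRT8 at 318 to 533 CPM over the 16 libraries. The 3 leukocyte markers summed to at most 0.0945 CPM, and of the basal markers KRT5 and TP63 had medians of 0.0154 and 0 CPM and KRT14 one of 0.676 CPM. The stromal markers COL1A1 and COL3A1 were at 10.8 to 40.8 and 3.22 to 10.5 CPM, LUM had a median of 0.293 CPM, and COL1A2 and DCN had medians of 0. Of the neuroendocrine markers SYP was at 2.57 to 7.08 CPM, and CHGA and NCAM1 had medians of 0.0563 and 0.320 CPM.

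AT7519 raised most of these genes. In the Scr arm 7 of the 8 rose and none fell, led by CCNL1 (4.57-fold), CLK1 (2.30-fold) and CLK3 (2.29-fold). Of all tested genes, 21.8% (Scr), 19.4% (siOGT1), 22.2% (siOGT2) and 23.6% (OSMI2) were called higher with AT7519. CCNL1, CLK1, CLK3 and CDK11B rose in all 4 arms, CCNL2 and CDK11A in some, and CLK2 and CLK4 in 1 arm each. Under DMSO no member passed against Scr in any arm, where 10.4% (siOGT1), 4.3% (siOGT2) and 2.98% (OSMI2) of all tested genes were called. With AT7519, CLK1, CLK3, CLK4 and CCNL1 were lower in siOGT1 than in Scr, beside 9.19% of all tested genes. No member passed there in siOGT2 or OSMI2, beside 8.16% and 14.2% of all tested genes called. Calls are at a Benjamini-Hochberg adjusted p under 0.05 over all 23830 tested genes, from edgeR's quasi-likelihood test, and log2 fold changes are given with their standard error (SE) from that fit.

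**Figure D1:**
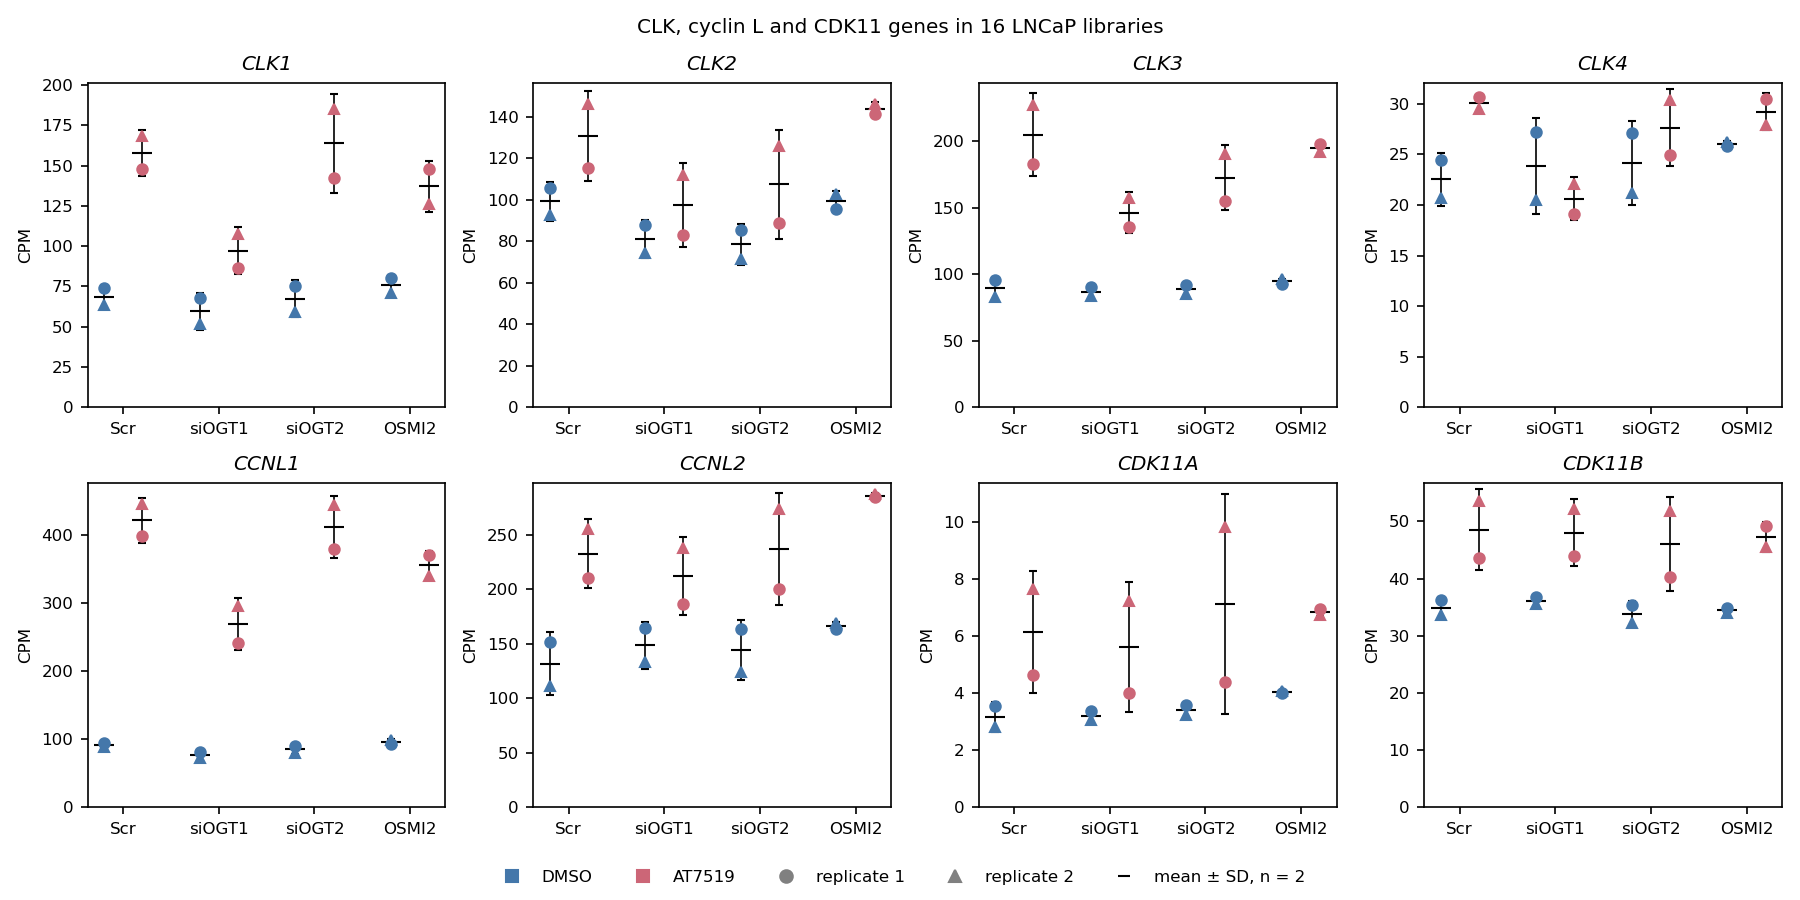
CPM (linear axis from 0) of the 8 genes in each of the 16 libraries, by arm (x axis) and agent (colour). Points are libraries, circles replicate 1 and triangles replicate 2, and the bar is the mean ± SD of 2. The 8 AT7519 libraries lie above the 8 DMSO libraries for CLK1, CLK3, CCNL1, CCNL2 and CDK11B, and the ranges overlap for CLK2, CLK4 and CDK11A.

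The 4 CLK genes encode kinases of 1 family, named for the LAMMER motif of the kinase domain. Their coding sequences over that motif are shown because they cover that motif and because they bear on how far reads can be told apart. The capitals mark the 6 codons at the place of the motif, which in CLK3 do not spell LAMMER exactly, taken from the principal coding transcript of each gene in GENCODE v29.
CLK1: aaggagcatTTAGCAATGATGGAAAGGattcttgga
CLK2: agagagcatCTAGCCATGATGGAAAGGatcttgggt
CLK3: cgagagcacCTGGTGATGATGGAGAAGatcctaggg
CLK4: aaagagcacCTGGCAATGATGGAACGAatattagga
Between these 36-base stretches, 23 (CLK1 and CLK3) to 28 (CLK1 and CLK2) bases were identical. Over the whole coding sequence CLK1 and CLK4 were the closest pair, with 77.1% identical bases, and CLK2 and CLK3 shared 66.9%. No 50-base window of one CLK coding sequence occurred in another, so a read that long and free of errors belongs to 1 CLK gene within the coding part.

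CLK1 (ENSG00000013441, chromosome 2) had 74.0 and 63.4 CPM in Scr under DMSO and 147.8 and 168 CPM with AT7519. In siOGT1 it went from 67.7 and 51.5 CPM to 86.8 and 107 CPM, in siOGT2 from 75.4 and 59.2 CPM to 142 and 185 CPM, and in OSMI2 from 80.3 and 71.0 CPM to 148 and 126 CPM. Every AT7519 library was above every DMSO library, and the siOGT1 libraries were the lowest of the AT7519 libraries. The rise was 1.20 on the log2 scale in Scr (SE 0.17, adjusted p = 5.03e-05), 0.70 in siOGT1 (SE 0.17, adjusted p = 0.00415), 1.28 in siOGT2 (SE 0.17, adjusted p = 3.25e-05) and 0.86 in OSMI2 (SE 0.17, adjusted p = 0.000824). All changes are relative to the bulk of genes. Without TMM scaling, on library size alone, the median of all genes in Scr moved from -0.05 to -0.30 and the share of calls that were higher from 47.0% to 26.9%. The rise of CLK1 in siOGT1 was then 0.48 and no longer passed (adjusted p = 0.0779).

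CLK4 (ENSG00000113240, chromosome 5), the closest relative of CLK1, was called higher in Scr alone. It had 24.4 and 20.7 CPM in Scr under DMSO and 30.7 and 29.5 CPM with AT7519. In siOGT1 it had 27.2 and 20.5 CPM under DMSO and 19.1 and 22.1 CPM with AT7519, in siOGT2 27.1 and 21.2 CPM against 25.0 and 30.3 CPM, and in OSMI2 25.8 and 26.2 CPM against 30.5 and 27.9 CPM. The agents did not overlap in Scr and OSMI2, and overlapped in siOGT1 and siOGT2. The rise passed in Scr (0.41, SE 0.14, adjusted p = 0.021). It was lost without Scr replicate 2 under DMSO (0.29, adjusted p = 0.206), without Scr replicate 1 with AT7519 (0.41, adjusted p = 0.0559), on library size alone (0.17, adjusted p = 0.396) and among genes with a mean log2 CPM of 3 or more (0.36, adjusted p = 0.0503). The log2 fold change was -0.21 in siOGT1 (95% interval -0.51 to 0.08), 0.19 in siOGT2 (-0.10 to 0.49) and 0.17 in OSMI2 (-0.13 to 0.46). On library size alone the value in siOGT1 was -0.43 and passed as lower (adjusted p = 0.031).

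CLK3 (ENSG00000179335, chromosome 15) rose in each arm. It had 95.6 and 83.2 CPM in Scr under DMSO and 183 and 227 CPM with AT7519. In siOGT1 it went from 90.8 and 83.3 CPM to 135 and 157 CPM, in siOGT2 from 92.2 and 85.2 CPM to 155 and 190.1 CPM, and in OSMI2 from 93.1 and 96.2 CPM to 198 and 192 CPM. The 8 DMSO libraries lay within 83.2 to 96.2 CPM and the AT7519 libraries within 135 to 227 CPM, with no overlap. The log2 fold changes were 1.20 in Scr (SE 0.11, adjusted p = 3.89e-08), 0.75 in siOGT1 (SE 0.11, adjusted p = 1.61e-05), 0.96 in siOGT2 (SE 0.11, adjusted p = 8.32e-07) and 1.04 in OSMI2 (SE 0.11, adjusted p = 1.97e-07). Exons of CLK3 overlap those of EDC3, a gene of mRNA decapping on the opposite strand, over 701 bases. EDC3 stood at 52.7 to 60.2 CPM under DMSO and at 46.5 to 61.2 CPM with AT7519. The library kit keeps the strand, but the sources used here do not say whether counting used it.

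CLK2 (ENSG00000176444, chromosome 1), which also acts in insulin signalling, moved less. It had 105.8 and 92.7 CPM in Scr under DMSO and 115 and 146 CPM with AT7519. In siOGT1 the values were 87.8 and 74.5 CPM against 83.0 and 112 CPM, in siOGT2 85.7 and 71.7 CPM against 89.0 and 126 CPM, and in OSMI2 95.7 and 103 CPM against 141 and 146 CPM. The agents overlapped in siOGT1 and separated in the other arms. Only OSMI2 passed (0.53, SE 0.17, adjusted p = 0.0218), and not without any 1 of its own 4 libraries (0.47 to 0.58, adjusted p = 0.0658 to 0.133). The log2 fold change was 0.40 in Scr (SE 0.17, adjusted p = 0.0775), 0.26 in siOGT1 (SE 0.17, adjusted p = 0.251) and 0.45 in siOGT2 (SE 0.17, adjusted p = 0.0501). DESeq2 called it in Scr (0.44, adjusted p = 0.0129) and in siOGT2 (0.48, adjusted p = 0.00703).

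CCNL1 (ENSG00000163660, chromosome 3), the gene of cyclin L1, had the highest rise of the 8 members in every arm. It had 95.1 and 89.0 CPM in Scr under DMSO and 398 and 444 CPM with AT7519. In siOGT1 it went from 81.4 and 71.9 CPM to 242 and 296 CPM, in siOGT2 from 89.8 and 80.4 CPM to 379 and 444 CPM, and in OSMI2 from 93.7 and 98.6 CPM to 370.3 and 339 CPM. The lowest AT7519 library (242 CPM, siOGT1) was above the highest DMSO library (98.6 CPM, OSMI2). The log2 fold change was 2.19 in Scr (SE 0.11, adjusted p = 1.64e-11), 1.81 in siOGT1, 2.27 in siOGT2 and 1.88 in OSMI2, each with a standard error of 0.11. CCNL1 kept its call in every arm under each of the 29 alternatives run.

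The promoter of CCNL1 is shown because this gene moved most and because it alone among the members held a full cyclic AMP response element, the palindrome TGACGTCA that CREB and ATF factors bind. The 30 bases are from RefSeq (GRCh38.p14, chr3:157160215-157160244, minus strand), with the element in capitals starting at position -86 from the start site.
CCNL1: gcccggcgtggTGACGTCAgggcggaagcg
The element, searched on both strands, occurred in 1.85% of 35116 RefSeq promoter windows of the same length (250 bases before to 50 after the start). The shorter core TGACG, which the full element contains, occurred in 7 of the 8 members, all but CLK2, and in 24.6% of windows. The GC box GGGCGG occurred in 6 members (45% of windows), CCAAT in 3 (34.6%), the E box CACGTG in 2 (7.26%) and TATAAA in none (11.5%). Some genes have more than 1 window, and a member was counted where any of its windows held the letters. A match describes the letters of the window and is not a measured binding site.

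CCNL2 (ENSG00000221978, chromosome 1), the gene of cyclin L2, rose less than CCNL1. It had 152 and 111 CPM in Scr under DMSO and 210.3 and 255 CPM with AT7519. In siOGT1 it had 164 and 133 CPM against 187 and 238 CPM, in siOGT2 164 and 124 CPM against 200.5 and 273 CPM, and in OSMI2 164 and 169 CPM against 284 and 287 CPM. All 8 AT7519 libraries were above all 8 DMSO libraries, with a narrow gap between 169 and 187 CPM. The rise passed in Scr (0.82, SE 0.20, adjusted p = 0.00441), siOGT2 (0.72, SE 0.20, adjusted p = 0.0103) and OSMI2 (0.78, SE 0.20, adjusted p = 0.00588). In siOGT1 it was 0.51 (SE 0.20, adjusted p = 0.0543), and DESeq2 called it there (0.55, adjusted p = 0.0328). The siOGT2 call was lost without siOGT2 replicate 2 under DMSO (0.53, adjusted p = 0.103) and without siOGT2 replicate 2 with AT7519 (0.48, adjusted p = 0.113). On library size alone CCNL2 passed in no arm (0.58 in Scr, adjusted p = 0.0663).

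CDK11A and CDK11B are near copies on chromosome 1 that encode the catalytic partner of the L-type cyclins. Aligned over 2343 bases, their coding sequences were 98.9% identical, with 26 mismatches. A 90-base stretch with 7 of those mismatches, in capitals, is shown because it is the kind of place where a read can be assigned to 1 of the genes.
CDK11A: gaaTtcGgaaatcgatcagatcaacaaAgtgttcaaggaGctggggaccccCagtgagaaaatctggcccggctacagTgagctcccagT
CDK11B: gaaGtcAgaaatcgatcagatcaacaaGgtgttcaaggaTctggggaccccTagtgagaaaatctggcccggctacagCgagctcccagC
Elsewhere the copies ran identical for up to 447 bases, and 60.9% of the 50-base windows of CDK11A occurred in CDK11B. The sources used here do not say how reads that matched both were handled, so the levels of this pair, and the split between them, are uncertain.

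CDK11B (ENSG00000248333) had the higher count of the pair. It had 36.2 and 33.6 CPM in Scr under DMSO and 43.6 and 53.5 CPM with AT7519. In siOGT1 it had 36.8 and 35.5 CPM against 43.9 and 52.2 CPM, in siOGT2 35.4 and 32.2 CPM against 40.2 and 51.9 CPM, and in OSMI2 34.9 and 34.0 CPM against 49.2 and 45.5 CPM. The DMSO libraries lay between 32.2 and 36.8 CPM and all AT7519 libraries above them. The rise was small and alike in size across the arms, at 0.48 in Scr (SE 0.12, adjusted p = 0.00273), 0.41 in siOGT1 (SE 0.12, adjusted p = 0.00898), 0.45 in siOGT2 (SE 0.12, adjusted p = 0.00511) and 0.46 in OSMI2 (SE 0.12, adjusted p = 0.00382). It passed in no arm on library size alone (0.18 to 0.23). Leaving out Scr replicate 2 with AT7519 ended the call in Scr (0.33, adjusted p = 0.0665), and leaving out OSMI2 replicate 1 with AT7519 ended that in OSMI2 (0.35, adjusted p = 0.0765). In siOGT1 and siOGT2 the call was lost without replicate 2 of either agent (0.25 to 0.38, adjusted p = 0.0631 to 0.14).

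CDK11A (ENSG00000008128) was counted at a low level. It had 3.55 and 2.81 CPM in Scr under DMSO and 4.66 and 7.68 CPM with AT7519. In siOGT1 it had 3.37 and 3.05 CPM against 4.00 and 7.23 CPM, in siOGT2 3.58 and 3.25 CPM against 4.39 and 9.85 CPM, and in OSMI2 4.01 and 4.08 CPM against 6.97 and 6.76 CPM. Within each arm both AT7519 libraries were above both DMSO libraries, but replicates with AT7519 lay far apart in the siRNA arms. The log2 fold change was 0.95 in Scr (SE 0.33, adjusted p = 0.0277), 0.81 in siOGT1 (SE 0.33, adjusted p = 0.0617), 1.06 in siOGT2 (SE 0.34, adjusted p = 0.0185) and 0.76 in OSMI2 (SE 0.33, adjusted p = 0.0718). The call in Scr was lost without Scr replicate 1 or 2 under DMSO (1.13 and 0.79, adjusted p = 0.0611 and 0.168) and without Scr replicate 2 with AT7519 (0.55, adjusted p = 0.279). That in siOGT2 was lost without siOGT2 replicate 1 or 2 under DMSO (1.13 and 0.98, adjusted p = 0.0752 and 0.112) and without siOGT2 replicate 2 with AT7519 (0.36, adjusted p = 0.376). In limma voom neither passed (0.92 in Scr, adjusted p = 0.0536, and 0.94 in siOGT2, adjusted p = 0.0704), and on library size alone neither did (0.72, adjusted p = 0.134, and 0.81, adjusted p = 0.101). The exons of CDK11A also overlap those of AL031282.2 on the same strand over 2448 bases, and AL031282.2 was counted at 1.47 to 3.88 CPM under DMSO and at 1.65 to 3.12 CPM with AT7519.

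**Figure D2:**
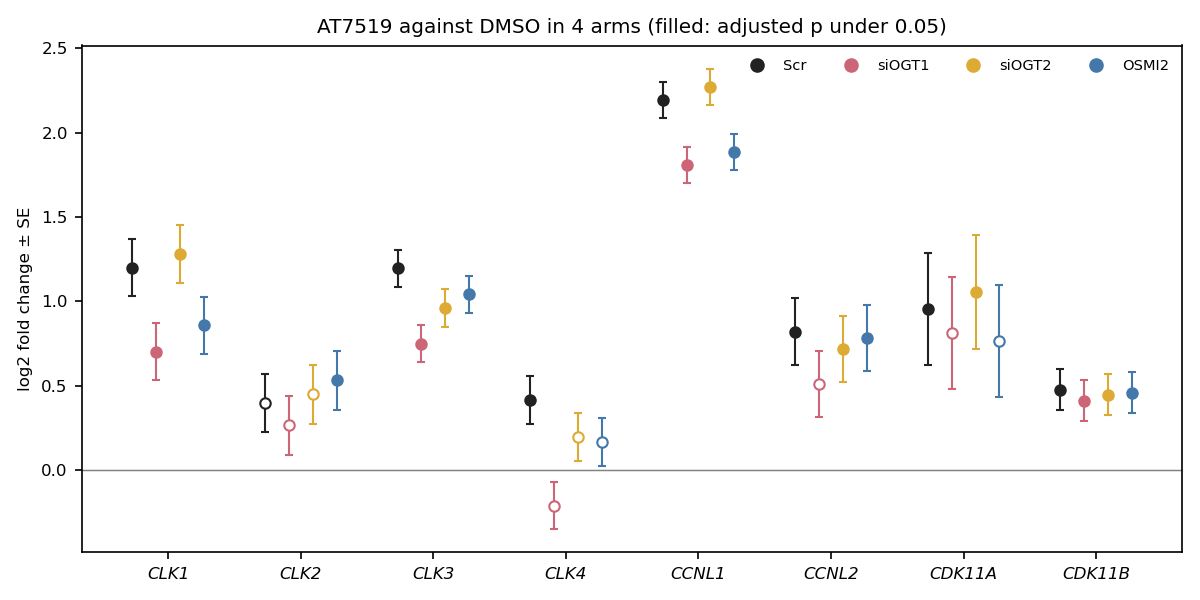
Log2 fold change of AT7519 against DMSO (y axis, ± SE) for each gene (x axis) in the 4 arms (colours). Filled points passed an adjusted p under 0.05, and CCNL1 is the highest in each arm, at 1.81 to 2.27.

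Counted by arm, AT7519 raised 7 (Scr), 4 (siOGT1), 6 (siOGT2) and 6 (OSMI2) of the 8 members and lowered none. The median log2 fold change of the 8 was 0.89, 0.61, 0.84 and 0.77, beside -0.05, -0.05, -0.03 and 0.02 over all tested genes. The 4 arms have separate controls, but a count over members describes these genes only. Same-numbered libraries of the siRNA arms also deviated together within an agent (r = 0.604 to 0.734). Responses in the siRNA arms are therefore not independent of each other. On library size alone CLK1, CLK3 and CCNL1 were the members called higher in Scr, siOGT2 and OSMI2, and CLK3 and CCNL1 in siOGT1. With upper-quartile scaling, which moved the median of all genes in Scr to 0.10 and the share of calls that were higher to 58.7%, calls were added and none lost. In a bulk sample, more RNA per cell and more cells that make it cannot be told apart.

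Replicates of the siRNA arms differed in a patterned way. Under DMSO, replicate 2 was below replicate 1 for all 8 members in Scr, siOGT1 and siOGT2, with log2 differences of -0.45 to -0.05. With AT7519, replicate 2 was above replicate 1 in all of these but CLK4 in Scr, by 0.16 to 1.17. CDK11A had the widest gaps, at 0.72 in Scr, 0.85 in siOGT1 and 1.17 in siOGT2. In OSMI2 the gaps of the 8 members were -0.18 to 0.11 under DMSO and -0.23 to 0.05 with AT7519. When the 3 libraries numbered 1 with AT7519 in the siRNA arms were left out together, 1 library stayed in each of those groups. The log2 fold change of CLK2 was then 0.59 in Scr, 0.46 in siOGT1 and 0.68 in siOGT2. When the 3 libraries numbered 2 were left out instead, CCNL2 (0.48), CDK11A (0.36) and CDK11B (0.25) lost their call in siOGT2. The spread in both fits came from the other groups alone. These 2 alternatives were chosen after the data had been seen. The part of this difference between libraries in the results was not tested.

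Ratios of counts within a library do not depend on scaling between libraries, and in 3 of the 4 pairs of related genes they lay in separate ranges with and without AT7519. CCNL1 had 0.497 to 0.800 counts for each count of CCNL2 in the 8 DMSO libraries and 1.18 to 1.89 in the 8 AT7519 libraries. CLK1 had 2.49 to 3.11 counts for each of CLK4 under DMSO and 4.51 to 6.11 with AT7519. CLK3 had 0.898 to 1.19 counts for each of CLK2 under DMSO and 1.31 to 1.75 with AT7519. None of these 3 pairs of ranges overlapped, so 1 gene of each pair moved more than its relative in every arm. The ratio of CDK11A to CDK11B was 0.0838 to 0.120 under DMSO and 0.0911 to 0.190 with AT7519, and the ranges overlapped. Within the AT7519 libraries, the ratio of CCNL1 to CCNL2 was 1.82 ± 0.105 in Scr and 1.76 ± 0.191 in siOGT2 but 1.27 ± 0.0354 in siOGT1 and 1.24 ± 0.0863 in OSMI2 (mean ± SD, n = 2). The same ratio under DMSO was 0.713 ± 0.123 in Scr, 0.597 ± 0.0684 in siOGT2, 0.518 ± 0.0301 in siOGT1 and 0.578 ± 0.00771 in OSMI2. Scr thus had the highest mean without AT7519 too. The ratios were looked at as a description and carry no test.

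**Figure D3:**
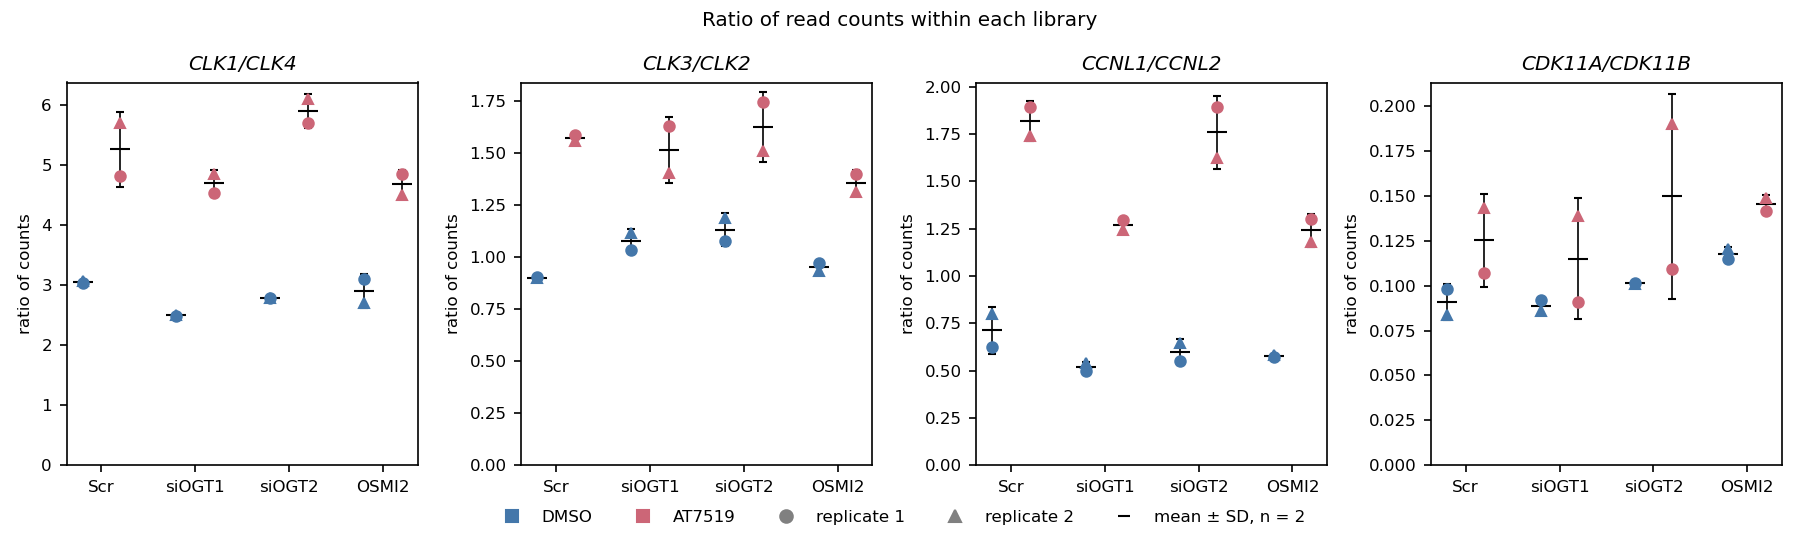
Ratio of read counts (y axis, from 0) between related genes within each of the 16 libraries, by arm and agent. Symbols are as for the plot of CPM, and the AT7519 libraries lie above all DMSO libraries for CCNL1/CCNL2, CLK1/CLK4 and CLK3/CLK2, while CDK11A/CDK11B overlaps.

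Levels of different genes can be set side by side only per length. Per kilobase of the principal transcript, the Scr libraries under DMSO had a mean of 57.1 CPM for CCNL2, 51.3 for CLK2, 48.4 for CLK3, 38.5 for CCNL1 and 36.4 for CLK1, with 13.0 for CDK11B, 8.78 for CLK4 and 1.30 for CDK11A. With AT7519 the order per kilobase was CCNL1 (176.3 CPM), CLK3 (111), CCNL2 (100.9), CLK1 (83.6), CLK2 (67.6), CDK11B (18.1), CLK4 (11.7) and CDK11A (2.52). CCNL1 thus stood below CCNL2, CLK2 and CLK3 under DMSO and above all other members with AT7519. The places of CDK11A and CDK11B depend on how reads matching both were handled, which the sources used here do not give. The order depends on the length used. Divided by all annotated exons instead, CLK3 (20.4 kb of exons) had 4.37 CPM per kilobase under DMSO and 10.03 with AT7519, below CDK11B (10.01 and 13.9).

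Under DMSO the question was whether OGT knockdown or OSMI2 moved these genes without the CDK inhibitor. No member passed against Scr in siOGT1, siOGT2 or OSMI2 in the main edgeR fit. DESeq2 and limma voom also called 0 of 8 in each arm, and at an unadjusted p under 0.05 stood CCNL1 in siOGT1 and no other member. CCNL1 had a log2 fold change of -0.26 in siOGT1 (95% interval -0.48 to -0.05, adjusted p = 0.117). CLK2 had -0.29 in siOGT1 (-0.66 to 0.08) and -0.34 in siOGT2 (-0.71 to 0.04). A fit of only the Scr and siOGT1 libraries under DMSO called both in siOGT1, CLK2 at -0.28 (adjusted p = 0.0438) and CCNL1 at -0.26 (adjusted p = 0.0337). With the replicate number as a block within each agent, edgeR called CLK2 and CCNL1 lower in siOGT1, CLK2 lower in siOGT2 and CCNL2 higher in OSMI2. Intervals of the main fit were widest for CDK11A, at -0.70 to 0.72 in siOGT1 and -0.37 to 1.05 in OSMI2. Those of CDK11B were -0.20 to 0.30 in siOGT1, -0.30 to 0.21 in siOGT2 and -0.27 to 0.23 in OSMI2.

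With AT7519 in both arms, 4 members were lower in siOGT1 than in Scr and none higher. CCNL1 was at 269 ± 38.5 CPM in siOGT1 and 421 ± 32.8 CPM in Scr (log2 fold change -0.65, SE 0.10, adjusted p = 0.000149). The log2 fold change was -0.70 for CLK1 (SE 0.17, adjusted p = 0.0102), -0.49 for CLK3 (SE 0.11, adjusted p = 0.00333) and -0.54 for CLK4 (SE 0.14, adjusted p = 0.0106). For each of these 4 genes both siOGT1 libraries were below both Scr libraries. The CLK1 and CLK3 calls were lost without Scr replicate 2 (-0.60 and -0.32, adjusted p = 0.0733 and 0.0868). Those of CLK1 and CLK4 were lost without siOGT1 replicate 1 (-0.57 and -0.46). They were also lost without all 3 siRNA-arm libraries numbered 1 with AT7519 (-0.67 and -0.44). CLK2 had -0.42 (SE 0.17, adjusted p = 0.113), and its siOGT1 libraries were also both below those of Scr. DESeq2 called CLK2 lower (-0.44, adjusted p = 0.028), and limma voom did not. In edgeR it was called lower without a low-count filter and with the replicate number as a block within each agent. CCNL2, CDK11A and CDK11B had -0.13, -0.13 and -0.02.

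In siOGT2 and OSMI2 no member differed from Scr with AT7519 past the threshold in the main edgeR fit, DESeq2 or limma voom. In that edgeR fit CLK3 in siOGT2 (-0.25, SE 0.11) and CCNL1 in OSMI2 (-0.25, SE 0.10) stood at an unadjusted p under 0.05. With the replicate number as a block within each agent, edgeR called CLK2 and CLK3 lower in siOGT2. In OSMI2 the same block gave CCNL1 lower and CCNL2 higher, and CCNL1 was also called lower there without a low-count filter. CCNL1 was at 412 ± 45.5 CPM in siOGT2 and 355 ± 21.8 CPM in OSMI2, beside 421 ± 32.8 CPM in Scr. CLK1 was at 164 ± 30.5 CPM in siOGT2, 137 ± 15.7 CPM in OSMI2 and 158 ± 14.3 CPM in Scr. With AT7519 the siOGT1 libraries were below the siOGT2 libraries for CLK1 and CCNL1, with no overlap. OGT itself was at 11.01 and 10.98 CPM in the siOGT1 libraries with AT7519 and at 29.3 and 33.8 CPM in those of siOGT2. Comparisons of the 3 arms share the Scr libraries, and a direct test of siOGT1 against siOGT2 was not made here.

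Whether the AT7519 response itself differed from that in Scr was tested by the interaction of arm and agent. No member passed in any arm, by the main edgeR fit, DESeq2 or limma voom. That edgeR fit called 0.0504% of all tested genes for siOGT1, 0% for siOGT2 and 0.747% for OSMI2. The 0 genes called for siOGT2 stand beside 928 of 23830 genes at an unadjusted p under 0.05, 3 called by DESeq2 and 0 by limma voom. Those 928 are a smaller share than the 0.05 awaited if no gene differed. In siOGT1 the response minus that in Scr was -0.62 for CLK4 (SE 0.20, 95% interval -1.04 to -0.21, adjusted p = 0.457), -0.45 for CLK3 (SE 0.15, adjusted p = 0.527), -0.38 for CCNL1 (SE 0.14, adjusted p = 0.658) and -0.50 for CLK1 (SE 0.24, adjusted p = 0.88). The first 3 of these had an unadjusted p under 0.05. With the replicate number as a block within each agent, edgeR called CLK3 (-0.45, adjusted p = 0.0366) and CLK4 (-0.62, adjusted p = 0.0355) in siOGT1. In the main fit the response in OSMI2 minus that in Scr was -0.31 for CCNL1 (SE 0.14, adjusted p = 0.553). For siOGT2 the 8 values lay between -0.24 and 0.10.

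**Figure D4:**
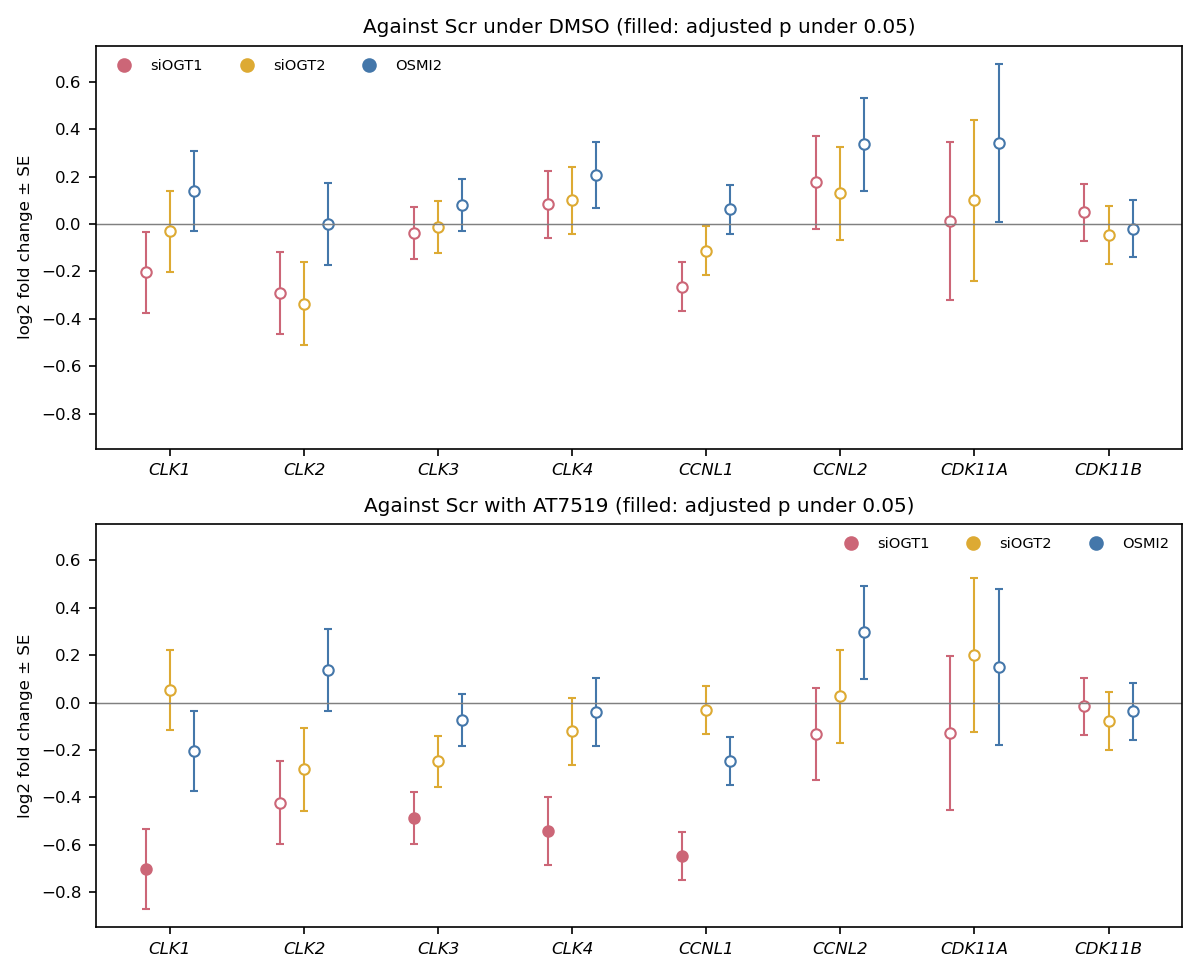
Log2 fold change of siOGT1, siOGT2 and OSMI2 against Scr (y axis, ± SE) for each gene, under DMSO (upper panel) and with AT7519 (lower panel). Filled points passed an adjusted p under 0.05, which only CLK1, CLK3, CLK4 and CCNL1 in siOGT1 with AT7519 did, at -0.49 to -0.70.

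The ordering of the 8 groups was similar for CLK1, CLK3 and CCNL1. In each the siOGT1 group was the lowest AT7519 group and its 2 libraries lay below those of every other AT7519 group for CLK1 and CCNL1, while for CLK3 they overlapped with siOGT2. With the 4 DMSO groups put in order by mean, neighbouring groups overlapped for 6 members. For CDK11A both OSMI2 libraries (4.01 and 4.08 CPM) were above the other DMSO libraries, and for CLK2 those of Scr (105.8 and 92.7 CPM) were above those of siOGT1 (87.8 and 74.5 CPM). For CLK4 all neighbouring groups overlapped. Across the 8 AT7519 libraries log2 CPM of CLK1 and CCNL1 correlated at r = 0.988 and that of CLK2 and CCNL2 at r = 0.913, values that share library and scaling.

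Among 10007 tested genes with a symbol and a mean log2 CPM of 3 or more, those whose log2 CPM followed a member most closely over the 16 libraries were found by Pearson's r. For CCNL1 these were MATR3, a nuclear matrix RNA-binding protein (r = 0.993), and GAS5, a long non-coding RNA that hosts snoRNAs (r = 0.991). For CLK3 they were GAS5 (r = 0.989) and EIF4A1, an RNA helicase of translation initiation (r = 0.989). For CLK1 they were SDHAP1, a pseudogene whose reads can be shared with SDHA (r = 0.972), and AKAP17A, an SR-related protein (r = 0.967). CLK2 was nearest to SRRM2, a large RS-domain protein of speckles (r = 0.971), and to TYK2 (r = 0.968). CLK4 had the lowest best match, with RBM5, a splicing regulator (r = 0.838). CCNL2 was nearest to CDK5RAP3 (r = 0.982), CDK11A to SIRT7 (r = 0.972) and CDK11B to UCKL1 (r = 0.977). These r cover differences between agents, arms and replicates alike. For AT7519 against DMSO, MATR3 rose by 2.80 (SE 0.17) and GAS5 by 1.28 (SE 0.10) in Scr, while SRRM2 and RBM5 passed in no arm. With AT7519 in both arms, MATR3, GAS5 and RBM5 were called lower in siOGT1 than in Scr, and SRRM2 was not called.

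Genes for SR and other splicing proteins, and for kinases related to the members, were counted in lists. These lists too were chosen with earlier results of these data known. AT7519 was followed by lower calls in 24.6% (Scr), 22% (siOGT1), 22.8% (siOGT2) and 23.6% (OSMI2) of all tested genes, and by higher calls in 21.8%, 19.4%, 22.2% and 23.6%. Of 12 SR protein genes 11 were tested, and with AT7519 in Scr 7 rose, 0 fell and 4 did not pass (median 0.43). In siOGT1, siOGT2 and OSMI2, 6, 8 and 6 rose, and 1 fell in OSMI2. SRSF9 rose from 108 to 176 CPM in Scr (0.71, SE 0.08, adjusted p = 3.02e-07), with rises of 0.68, 0.72 and 0.82 in the other arms, and SRSF4 rose by 0.67 (SE 0.16, adjusted p = 0.00307). On library size alone 3 SR protein genes rose and 1 fell in Scr. Of 17 tested genes for other RS-domain splicing proteins, 10 rose and 2 fell in Scr (median 0.35). RNPS1, of the exon junction complex, rose by 1.05 (SE 0.17, adjusted p = 0.000229), and TRA2B, a splicing activator, by 0.77 (SE 0.09, adjusted p = 1.23e-06). RSRP1 fell by 0.78 (SE 0.18, adjusted p = 0.00189) and LUC7L3, a U1 snRNP-associated protein, fell by 0.76 (SE 0.08, adjusted p = 1.96e-07).

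The other kinases of SR proteins and the related DYRK and HIPK kinases did not move as the CLK genes did in count. Of 12 genes 2 rose, 8 fell and 2 did not pass in Scr (median -0.34), and 7, 7 and 8 fell in siOGT1, siOGT2 and OSMI2. In Scr 24.6% of all tested genes were called lower and 21.8% higher. DYRK3, a kinase known to dissolve speckles and stress granules, went from 3.05 to 0.481 CPM in Scr (-2.68, SE 0.33, adjusted p = 1.71e-06), with -2.08, -2.65 and -2.61 in the other arms. DYRK2 went from 19.4 to 5.54 CPM (-1.82, SE 0.24, adjusted p = 7.92e-06). DYRK1A rose by 0.50 in Scr (SE 0.10, adjusted p = 0.000308) and DYRK4 by 0.37 (SE 0.14, adjusted p = 0.0327). SRPK1, the best known SR protein kinase outside the CLK family, had 142 CPM under DMSO and 131 CPM with AT7519 (-0.12, SE 0.10, adjusted p = 0.334). Its relatives had lower means with AT7519 in Scr, SRPK2 at 105 and 81.0 CPM and SRPK3 at 5.24 and 1.48 CPM.

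The genes listed with the SF3A and SF3B proteins of the U2 snRNP, among them the CDK11 substrate SF3B1, moved upwards where they moved. Of 12 tested genes 9 rose, 0 fell and 3 did not pass in Scr (median 0.43), beside 21.8% of all tested genes called higher, and 9 rose with 0 falls in each other arm. On library size alone 6 rose and 2 fell in Scr. SF3B1 rose from 373 to 525 CPM (0.49, SE 0.07, adjusted p = 3.79e-06), SF3B6 by 0.62 (SE 0.10, adjusted p = 3.93e-05) and SF3B2 by 0.61 (SE 0.08, adjusted p = 3.77e-06). The transcription-associated CDKs and cyclins were mixed. Of 12 tested genes 4 rose, 5 fell and 3 did not pass in Scr (median -0.10). CDK9, the P-TEFb kinase, rose by 0.73 (SE 0.08, adjusted p = 3.66e-07) and CCNH, the cyclin of CDK7, by 0.58 (SE 0.09, adjusted p = 1.36e-05). CDK13 fell from 53.2 to 19.8 CPM (-1.43, SE 0.10, adjusted p = 8.35e-10), CDK7 fell by 0.73 (SE 0.14, adjusted p = 0.000217) and CDK12 fell by 0.34 (SE 0.08, adjusted p = 0.000988).

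**Figure D5:**
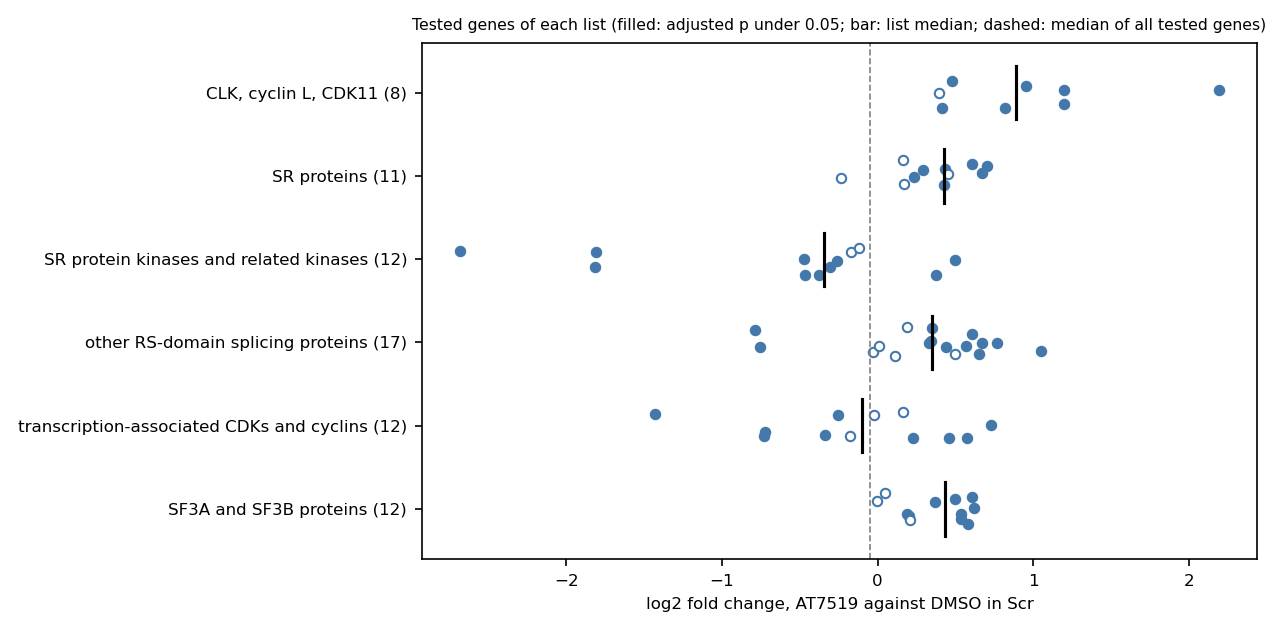
Log2 fold change of AT7519 against DMSO in Scr (x axis) for the tested genes of each list (rows, with their number). Filled points passed an adjusted p under 0.05, black bars are list medians and the dashed line is the median of all tested genes (-0.05); the 8 members have a median of 0.89 and the related kinases one of -0.34.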

How the data were processed

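Gene expression was measured by RNA sequencing in 16 libraries of LNCaP cells, 2 in each of 8 groups. The deposited raw counts are whole-number reads per gene, made by the authors from total RNA and a strand-specific kit, per the labels. Tools listed in the submitters' processing notes are HTSeq, STAR and DESeq2, and the build is GRCh37 (hg19). The sources used here give no versions, strand setting or treatment of reads with several matches. A second deposited table of normalized values was not used.

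Symbols were matched by Ensembl ID (55528 of 60252 rows named). All 16 libraries were fitted together in edgeR 4.0.16 (R 4.3.3) with filterByExpr on the 8 groups, TMM scaling, robust glmQLFit and two-sided glmQLFTest. This made 13 comparisons over 23830 genes. Intervals are at 95%, CPM is a gene's share of the TMM-adjusted library size, and edgeR's common coefficient of variation was 0.110. Replicates correlated with r of 0.983 to 0.991 across genes and differed by more than sampling noise, so none was merged. Named were all 8 members and up to 2 genes per list and direction with the largest change that passed in Scr with AT7519. SF3B1, SRPK1, CDK9 and CDK12 were also named, and SRPK2 and SRPK3 beside SRPK1. So were the 2 genes most correlated with each member, of which some are given. The members and lists were chosen with earlier results of these data known. Alternatives were other scalings, DESeq2 1.42.0, limma voom (limma 3.58.1), other filters, fits of only the compared groups, replicate blocks and each library left out. A fit with a library left out has 1 library in that group, so the spread comes from the other groups alone. Tested on simulated counts for AT7519 against DMSO in Scr over 23830 genes, the fit recovered 48% of 200 genes changed 2-fold, none with the wrong sign, and 4% of its calls were false. The simulation drew each library independently and changed only those 200 genes. In the data 46.5% of genes were called in this comparison, and same-numbered siRNA-arm libraries deviated together. The simulated rates therefore do not carry over to the data. Transcripts, exon overlaps and coding sequences came from GENCODE v29 (GRCh38), and promoters from RefSeq (GRCh38.p14). Because the counts are on GRCh37, no coordinates of counted genes are given, and the 1 promoter position printed is on GRCh38.p14. Splicing was not analysed here. Some luminal markers on the list are not reported here.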

Additional observations from a re-analysis of the deposited data

How the results depend on the processing

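Counts of members called were recomputed under 29 alternatives for each of 13 comparisons. Of these 377 counts 349 stayed within 1.5 times the reported one and 28 did not, and of 2977 values of single members no called value changed sign. Many comparisons had a reported count of 0, which was taken as kept when it stayed at 0. Many left-out libraries also lay outside the groups compared, so the share that stayed is not a measure of robustness. CCNL1 and CLK3 kept their AT7519 calls in all 4 arms under every alternative, and CLK1 in all but library size only in siOGT1. On library size alone 3 members were called in Scr, 3 in siOGT2 and 3 in OSMI2 with AT7519. Without a low-count filter 1 member (CCNL1) was called lower in siOGT1 under DMSO and 1 (CCNL1) in OSMI2 with AT7519. A fit of only the compared groups called 2 in siOGT1 under DMSO. Leaving out all siRNA-arm AT7519 libraries numbered 1, or all those numbered 2, left 1 library in each of these groups. Counts of calls from these 2 fits are therefore not listed. Without those numbered 1, the calls of CLK1 and CLK4 in siOGT1 against Scr with AT7519 ended. Without those numbered 2, the AT7519 calls of CCNL2, CDK11A and CDK11B in siOGT2 ended. The cause was not tested. With single libraries left out, calls with AT7519 ranged over 5 to 8 (Scr), 3 to 6 (siOGT1), 3 to 7 (siOGT2) and 4 to 7 (OSMI2). The count for siOGT2 was 3 without siOGT2 replicate 2 of either agent. Against Scr with AT7519 they ranged over 2 to 5 (siOGT1), 0 to 1 (siOGT2, where CLK3 passed without Scr replicate 1) and 0 to 1 (OSMI2, where CCNL1 passed without any 1 of the siOGT1 or siOGT2 libraries with AT7519), and they stayed at 0 under DMSO and for all interactions.

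The replicate numbers pair no samples by the labels. Deviations of same-numbered libraries correlated at r = 0.604 to 0.734 (10158 genes) between siRNA arms of the same agent and at -0.135 to 0.038 between siRNA arms of different agents. Pairs with OSMI2 gave 0.045 to 0.185 for the same agent and -0.029 to 0.432 for different agents, the highest for OSMI2 with DMSO and OSMI2 with AT7519. With the replicate number as a block, 7, 4, 6 and 7 members were called for AT7519 in Scr, siOGT1, siOGT2 and OSMI2, 4 in siOGT1 against Scr with AT7519, and 0 in the other comparisons. With the block set within each agent, 5, 5, 6 and 6 were called for AT7519. CLK4 (0.26, adjusted p = 0.0649) and CDK11A (0.50, adjusted p = 0.0635) then lost their call in Scr, and CLK4 was lower in siOGT1 (-0.36, adjusted p = 0.0131). That block gave 2, 1 and 1 calls against Scr under DMSO (CLK2 and CCNL1 lower in siOGT1, CLK2 lower in siOGT2, CCNL2 higher in OSMI2). With AT7519 it gave 5, 2 and 2 (CLK2 and CLK3 lower in siOGT2, CCNL1 lower and CCNL2 higher in OSMI2). It gave 2 for the interaction in siOGT1 (CLK3 -0.45, adjusted p = 0.0366, and CLK4 -0.62, adjusted p = 0.0355). Over all genes that interaction had 218 calls with this block, 118 by DESeq2 and 12 as reported, and that of OSMI2 had 784, 475 and 178. CDK11A had the fewest counts of the members, at 171 to 614 per library.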
